A study of Drosophila melanogaster with 6 samples.

Results

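A set of 10 Jun kinase pathway genes was followed in larval eye discs in which the long non-coding RNA Hsromega was targeted for RNAi or for overexpression: the ligand egr, the receptors grnd and wgn, the kinases msn, slpr, hep and bsk, the phosphatase puc, and the transcription factors Jra and kay. Rows of both deposited tables were taken where the gene column held one of these names, which found 9 of the 10 genes. The receptor grnd was found under CG10176, which the reference tables list as a synonym of grnd, so that all 10 genes had a row among 15904 loci. The row of slpr also holds CG2278, and its value belongs to both genes.

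RNA came from eye discs, the epithelium that forms the adult fly eye, of wandering larvae at the end of the third instar. The 3 groups held 2 libraries each, and every library came from 30 pairs of discs pooled before extraction. All groups carried w1118 and sev-GAL4 with UAS-GFP. The RNAi group had the genotype w1118; sev-GAL4/UAS-GFP'; hsromegaRNAi, the overexpression group w1118; sev-GAL4/UAS-GFP; EP3037, and the control w1118; sev-GAL4/UAS-GFP with no further insertion. The sev-GAL4 driver takes its pattern from the sevenless gene, a gene expressed in only some cells behind the morphogenetic furrow, so the targeted cells gave only part of the RNA measured. In whole discs, fewer cells of a type and less RNA per cell cannot be told apart.

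Jun kinase signalling is a stress-activated MAP kinase cascade. The tumour necrosis factor homologue Eiger binds its receptors, the signal passes through kinases that phosphorylate one another in turn to the Jun kinase Basket, and Basket phosphorylates Jun, which with Fos forms the transcription factor AP-1. In fly imaginal discs the pathway is known for closing epithelia, for wound repair and for cell death, and eye-specific expression of Eiger gives a small, ablated eye. Its phosphatase Puckered is itself a target of the pathway and a common reporter of its activity.

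Each value is an FPKM, a fragment count scaled to transcript length and to mapped fragments, which the authors pooled over both libraries of a group. No standard deviation over libraries could therefore be given, and the depth is unknown. The test is the authors' deposited Cuffdiff test, and a gene was called at a q-value (p adjusted for multiple tests) of 0.05 or less. For the 10 genes these q-values are lower than an adjustment within each comparison gives, as set out in the last section. Fold values are log2 of the treated over the control FPKM without a pseudocount. The error given beside a fold is the fold divided by the deposited test statistic, called the implied SE. It is wider than the error behind the deposited p, so an interval built from it can hold 0 where p is below 0.05. The labels do not state whether replicate libraries were raised and dissected separately, and the spread behind each p may be technical.

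The discs and the target were checked first. Hsromega stood at an FPKM of 204 in RNAi discs, 376 in overexpression discs and 202 in control discs, with a Cuffdiff q of 0.997 for RNAi and 0.758 for overexpression in the authors' deposited table, so the target does not check the labels. All 9 eye disc markers (ey, toy, eya, so, dac, gl, elav, ato and sev) were detected in every group, and their summed FPKM was 209 in RNAi, 192 in overexpression and 354 in control discs. All 9 were lower than control in both treated groups. One of them, the photoreceptor transcription factor gl, was called, in overexpression discs. With the trend along transcript length subtracted, as described below, toy came to 0.043 for RNAi and 0.23 for overexpression. The other eye disc markers stayed below 0, with elav (10506 nt) moving from -1.51 and -1.87 to -0.38 and -0.57. The summed FPKM of 5 salivary glue genes was 3171 in RNAi, 79.3 in overexpression and 46.4 in control discs, with 3 genes called as raised by RNAi. All 5 were above control in RNAi discs, and 3 of 5 in overexpression discs. The summed FPKM of 5 fat body genes was 133, 74.9 and 35.0 in RNAi, overexpression and control discs, with 3 called as raised by RNAi. The sum of 3 muscle genes was 604 in RNAi, 1173 in overexpression and 1239 in control discs. Haemocyte markers summed to 46.9 in RNAi, 37.3 in overexpression and 55.7 in control discs over 6 genes. Most single haemocyte genes went the other way, with 4 of 6 above control in RNAi discs and 5 of 6 in overexpression discs. The most abundant in control discs, Ppn, was below control in both, at 19.4 in RNAi, 9.63 in overexpression and 33.9 in control discs. Glia markers summed to 9.66, 9.63 and 11.3 over 3 genes in the same order of groups. Of these, repo and moody were below control in both treated groups. The row of gcm, which also holds CG31709, was above it, at 2.64 in RNAi, 3.56 in overexpression and 1.19 in control discs. Homothorax, Distal-less and Antennapedia summed to 78.8 in RNAi, 62.4 in overexpression and 137 in control discs. No gene of these last 4 lists was called. The part of these tissues in the values below was not tested.

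No gene of the set was called in either comparison. In the authors' deposited table, Cuffdiff called 0 of 10 genes for RNAi, where 0.822% of 11314 tested loci were called, and 0 of 10 for overexpression, where 1.2% of 11372 were. At an unadjusted p of 0.05 or less, 1 of 10 genes (slpr) was lower in RNAi discs, against 3.61% of all tested loci. By the same threshold 2 of 10 (slpr and hep) were lower in overexpression discs, against 5.58% of all tested loci, and none was higher in either comparison. These shares cover tested loci of every level and transcript length. Of 3807 tested loci in the control FPKM range of the set, 1.18% were called by q for RNAi and 2.1% for overexpression. All 10 genes were well expressed in all groups. Their FPKM spanned 5.45 to 60.9 in RNAi discs, 4.48 to 67.3 in overexpression discs and 10.9 to 52.9 in control discs, where wgn was the lowest, at percentile 67.7 of all loci, and msn the highest, at percentile 91.6.

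**Figure D1:**
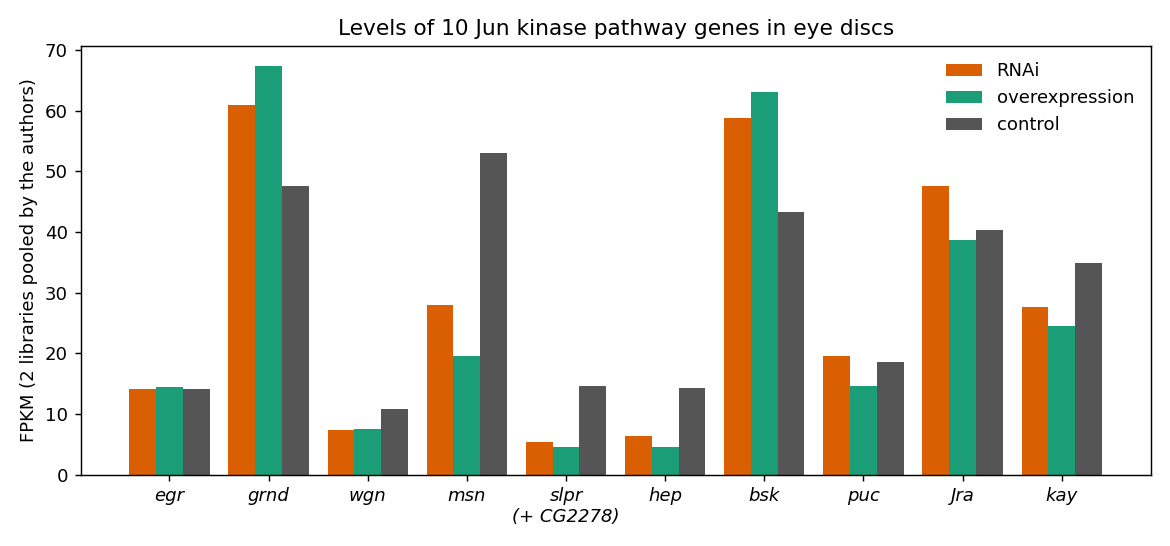
Bars give the pooled FPKM of each of the 10 genes in RNAi, overexpression and control discs, ordered from ligand and receptors to transcription factors; the bar of slpr includes CG2278. The bars of msn, slpr, hep, wgn and kay are lower in both treated groups, and those of grnd and bsk are higher in both, with no gene passing the q threshold.

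No call was made for the ligand or its receptors, whose values lay at control for egr, above it for grnd and below it for wgn. The gene egr encodes Eiger, the only tumour necrosis factor of the fly, and stood at an FPKM of 14.1 in RNAi discs, 14.4 in overexpression discs and 14.2 in control discs. These 3 values were nearly the same. The log2 fold was -0.0056 for RNAi and 0.023 for overexpression, with implied SEs of 0.77 and 0.76. The intervals that follow from these SEs, at the 95% level, ran from -1.46 to 1.51 for overexpression and were about as wide for RNAi, both wide enough to hold a change of 1 on the log2 scale in either direction.

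The receptor grnd (Grindelwald, chromosome 2L, 18485417 to 18488021 of dm6, plus strand) stood at 60.9 in RNAi, 67.3 in overexpression and 47.6 in control discs. It was the most abundant of the 10 genes in both treated groups and second to msn in the control. Its log2 folds of 0.35 for RNAi and 0.50 for overexpression had implied SEs of 1.20 and 1.10, the largest of the set, and Cuffdiff q-values of 0.981 and 0.919 in the authors' deposited table. The other receptor, wgn (Wengen, chromosome X), stood at 7.41, 7.59 and 10.9 in RNAi, overexpression and control discs, at log2 folds of -0.55 and -0.52. Grindelwald mRNA exceeded that of Wengen 8.22-fold in RNAi discs, 8.86-fold in overexpression discs and 4.38-fold in control discs, on the FPKM scale, which takes account of length. The 2 receptor genes thus lay on opposite sides of control in both treated groups, without a call for either.

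The 3 kinase genes upstream of bsk (msn, slpr and hep) had the lowest treated-to-control ratios of the set, without a call. The gene msn encodes Misshapen, a Ste20-type kinase that acts on the kinases below it (chromosome 3L, 2554847 to 2586540, minus strand). Its FPKM was 28.0 in RNAi discs and 19.5 in overexpression discs, against 52.9 in control discs. In the control it was the most abundant of the 10 genes, while grnd, bsk and Jra stood above it in RNAi discs, and kay as well in overexpression discs. The log2 fold was -0.92 for RNAi (implied SE 1.00, Cuffdiff q = 0.671 in the authors' deposited table) and -1.44 for overexpression (implied SE 0.99, q = 0.355).

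The row with slpr, which encodes the mixed-lineage kinase Slipper, had the largest difference of the set. It stood at 5.45 in RNAi discs and 4.57 in overexpression discs, against 14.7 in control discs. The log2 fold was -1.43 for RNAi, with an implied SE of 0.88, p = 0.0275 and q = 0.198 by Cuffdiff in the authors' deposited table. For overexpression it was -1.68, with an implied SE of 0.87. Cuffdiff gave q = 0.0940 there at an unadjusted p of 0.00945, in the authors' deposited table. Among all loci with an FPKM of 1 or more in either group, these folds lay at percentiles 5.92 and 4.68. CG2278 lies on the same strand of chromosome X (8165833 to 8170266) and overlaps slpr (8170229 to 8177185) by 38 bases, so the share of each gene in this value is unknown.

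One step down, hep encodes Hemipterous, the kinase that phosphorylates Basket (chromosome X, 13079205 to 13090434, minus strand). It stood at an FPKM of 6.31 in RNAi discs and 4.48 in overexpression discs, against 14.3 in control discs. The treated values were 0.442 (RNAi) and 0.313 (overexpression) times the control value. The log2 fold was -1.18 for RNAi (implied SE 0.89, Cuffdiff p = 0.0943 and q = 0.438 in the authors' deposited table) and -1.67 for overexpression (implied SE 0.86, p = 0.0152 and q = 0.132). The intervals from the implied SE reached 0.57 for RNAi and 0.017 for overexpression at their upper ends, both above 0. The Cuffdiff p of 0.0152 for overexpression rests on a narrower error than this SE.

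The Jun kinase itself was above control in value. The gene bsk (Basket, chromosome 2L, 10247502 to 10250501, minus strand) stood at 58.7 in RNAi discs, 63.1 in overexpression discs and 43.3 in control discs. The log2 folds of 0.44 and 0.54 were the highest of the set, at implied SEs of 0.87 and 0.85 and Cuffdiff q-values of 0.889 and 0.808 in the authors' deposited table. The ratio of hep to bsk, a kinase and its substrate, was 0.108 in RNAi discs, 0.0711 in overexpression discs and 0.331 in control discs. These ratios combine 2 differences that did not pass the test one by one, and the ratio itself was not tested.

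The phosphatase gene puc, the pathway's own feedback target (Puckered, chromosome 3R, 8105332 to 8122294, plus strand), stood at 19.5 in RNAi discs, 14.7 in overexpression discs and 18.5 in control discs. The RNAi value was slightly above control and the overexpression value below it. The log2 fold was 0.076 for RNAi, with an interval from -1.54 to 1.70, and -0.33 for overexpression, with an interval from -1.98 to 1.31. Cuffdiff gave q = 0.994 and 0.939 in the authors' deposited table.

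The transcription factor genes Jra (Jun) and kay (Fos) lay between these extremes. Jra stood at 47.5 in RNAi discs, 38.6 in overexpression discs and 40.3 in control discs, at log2 folds of 0.24 and -0.062. Kayak mRNA (kay) stood at 27.7, 24.5 and 34.9 in RNAi, overexpression and control discs, at log2 folds of -0.33 and -0.51. The kay to Jra ratio was 0.583 in RNAi, 0.635 in overexpression and 0.865 in control discs, and was not tested. It compares a transcript of 4574 nt with one of 1565 nt. With the trend along transcript length subtracted, as described below, the folds of kay were 0.13 for RNAi and 0.084 for overexpression. Those of Jra were 0.16 and -0.26, so the lower ratio in treated discs is not kept. The smallest Cuffdiff q of the 2 genes in the authors' deposited table was 0.836, for kay in overexpression discs.

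**Figure D2:**
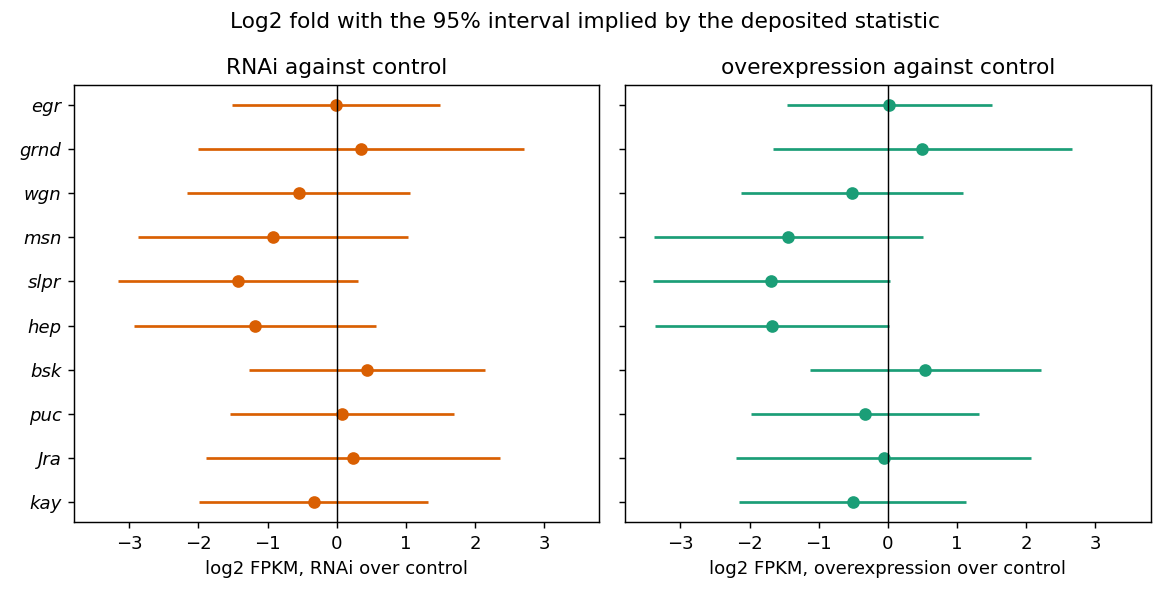
Points give the log2 fold over control of each gene in RNAi and overexpression discs, and lines the 95% interval from the SE implied by the deposited statistic. All 20 intervals include 0; those of slpr and hep in overexpression discs end at 0.027 and 0.017.

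Over the whole set, the median log2(FPKM + 0.1) fold was -0.17 for RNAi, against -0.040 over 9891 loci with an FPKM of 1 or more, with 6 genes below and 4 above control. This median turned to 0.059 with the trend along transcript length subtracted, and was -0.0055 without the joined row of slpr and CG2278. For overexpression it was -0.42, against 0.031 over 9977 loci, with 7 genes below and 3 above control, or -0.23 with the length trend subtracted. The precision bounds what could be seen. Implied SEs of the 10 genes had a median of 0.88 for RNAi and 0.86 for overexpression. Of 3807 tested loci with a control FPKM between those of wgn and msn, Cuffdiff called 45 for RNAi and 80 for overexpression, and the smallest called log2 fold in size was 1.48 for RNAi and 1.64 for overexpression. Folds of slpr and hep in overexpression discs, -1.68 and -1.67, are of that size, and no other gene of the set exceeded it in its comparison.

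Both treated groups were compared with the same control value, so a high or low control would move both folds together, and likeness between the 2 comparisons is not given as a result. No test between the treated groups was used here. The log2 ratio of overexpression over RNAi ranged from -0.52 for msn to 0.15 for grnd, with a median of -0.22, against 0.034 over 9742 loci. It was below 0 for 6 genes (msn, hep, puc, Jra, slpr and kay) and above 0 for the ligand, both receptors and bsk.

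The folds of the 10 genes followed the length of their transcripts. The 3 genes with the longest annotated transcripts, msn (6418 nt), hep (5689 nt) and slpr (5594 nt), had the 3 lowest folds in both comparisons, from -1.43 to -0.92 for RNAi and from -1.68 to -1.44 for overexpression. The other 7, with transcripts of 1565 nt (Jra) to 4574 nt (kay), lay between -0.55 and 0.44 for RNAi and between -0.52 and 0.54 for overexpression. Across the 10 genes, Spearman's rho between length and fold was -0.85 for RNAi and -0.84 for overexpression. Across all loci with a known length it was -0.41 (9774 loci) and -0.50 (9858 loci). All these genes share the same pooled libraries, so rho is a description of these values. Loci with a transcript over 5000 nt had a median of -0.84 for RNAi over 1048 loci and -0.98 for overexpression over 1051 loci, against 0.020 and 0.11 for shorter ones.

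At the length of each gene, the running median of all loci gave what a locus of that size typically showed. It was -0.80 at the length of msn, -0.69 at that of hep and -0.69 at that of slpr for RNAi. With the running median subtracted, the RNAi folds were -0.12 for msn, -0.48 for hep and -0.73 for slpr. The overexpression folds after the same subtraction were -0.52, -0.79 and -0.80 for msn, hep and slpr. The folds of bsk, 0.44 for RNAi and 0.45 for overexpression, were the highest or next to the highest, beside those of grnd at 0.35 and 0.46. Those of kay came to 0.13 and 0.084, above 0 in place of below. The part of transcript length in the folds of single genes was not tested.

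**Figure D3:**
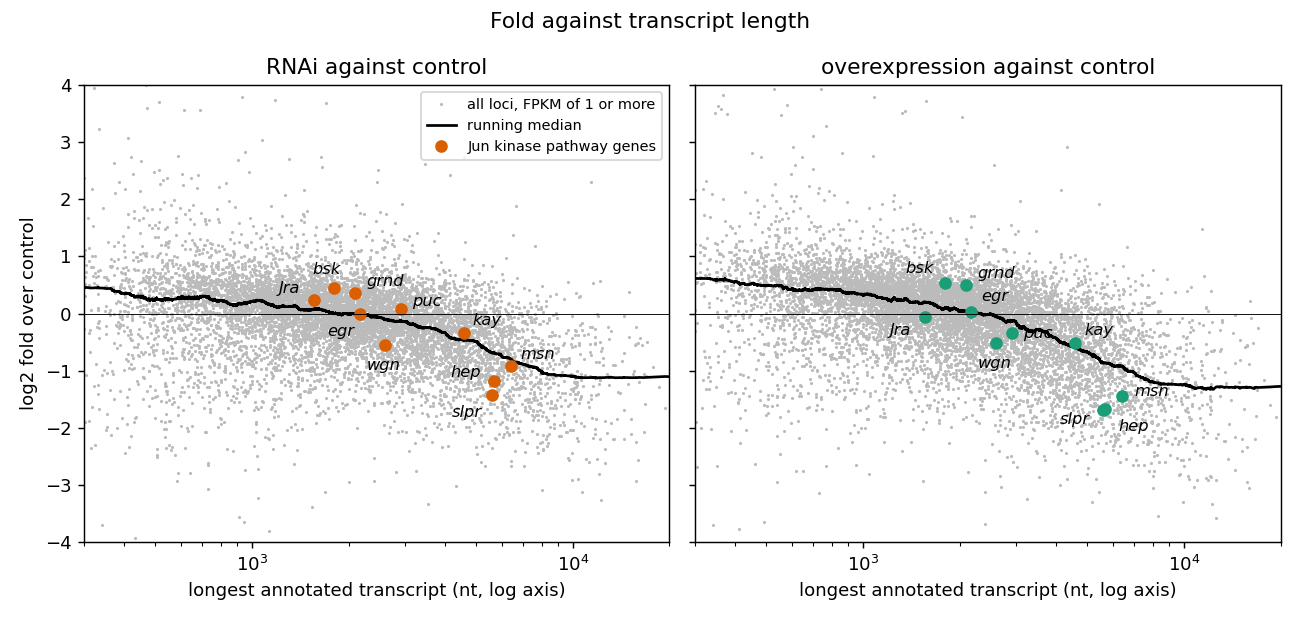
Each grey point is a locus with an FPKM of 1 or more, placed by its longest annotated transcript (log axis) and its log2(FPKM + 0.1) fold over control; folds outside -4 to 4 and lengths outside the axis are not drawn. The black line is the running median over 250 loci on each side, and coloured points are the 10 genes, whose folds carry no pseudocount; slpr, hep and msn lie at or below the line at its falling end in both panels.

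The genes slpr, hep and wgn lie on chromosome X, and all 3 were below control in both treated groups. The median fold of X-linked loci was -0.21 for RNAi over 1592 loci and -0.20 for overexpression over 1602 loci, against -0.012 and 0.069 for all other loci. The folds of the 3 genes for RNAi were -1.43, -1.18 and -0.55, and the part of X linkage in them was not tested.

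Overlapping genes touch some values. Annotated genes on the opposite strand overlap puc, Jra, kay, egr and grnd, and the sources used here do not say whether fragments were counted by strand. RpLP0-like, which overlaps Jra by 39 bases at their ends, had an FPKM of 56.7 in RNAi, 62.1 in overexpression and 44.2 in control discs in a row of its own. Its levels stood above those of Jra in every group. The gene kon, which overlaps the end of grnd by 275 bases, stood at 9.60, 8.52 and 8.27 in RNAi, overexpression and control discs, far below grnd. No gene on the opposite strand overlaps bsk, hep, wgn, msn or slpr.

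A wider list of 35 other genes of the pathway and its outputs had no call either. Cuffdiff called 0 of 34 tested genes in each comparison, and 0 of 34 had an unadjusted p of 0.05 or less in the authors' deposited table. Over all tested loci, 4.5% for RNAi and 6.16% for overexpression had such a p in either direction. The median log2(FPKM + 0.1) fold over the 32 expressed genes was -0.11 for RNAi, with 21 of 35 below control, and -0.42 for overexpression, with 25 of 35 below control. With the length trend subtracted these medians came to 0.00089 and -0.11. In this list too the 7 expressed genes with transcripts over 5000 nt had lower medians, -0.54 for RNAi and -0.52 for overexpression, than the 25 others, at -0.071 and -0.13.

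Among adaptors and upstream regulators, the most abundant were ben, a ubiquitin-conjugating enzyme, and the small GTPases Cdc42 and Rac1. Their log2 folds lay between -0.13 and 0.075 in both comparisons. The levels of ben were 141 in RNAi, 127 in overexpression and 134 in control discs. The adaptor Tab2, a partner of the kinase Tak1, came nearest to the unadjusted threshold in this list, at 3.56 in RNAi, 3.03 in overexpression and 7.38 in control discs, with p = 0.0503 for overexpression by Cuffdiff in the authors' deposited table (a gene singled out after its values were seen).

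The 4 other kinases of the level of slpr were below control in both treated groups before any correction for length, without a call. Wallenda (wnd), a kinase of axon injury signalling, stood at 13.4 in RNAi, 13.7 in overexpression and 23.4 in control discs. Tak1 stood at 11.5, 11.5 and 16.2, and Mekk1 at 13.9, 11.1 and 16.0, in RNAi, overexpression and control discs. Named after its values were seen, the kinase Ask1 was held under its older name Pk92B and lay at log2 folds of -0.23 and -0.37. With the length trend subtracted, the median of these 4 genes was 0.047 for RNAi and 0.056 for overexpression, with Ask1 and Mekk1 above 0 and Tak1 and wnd below 0 in both comparisons. Mkk4, which like Hemipterous phosphorylates Basket, differed from hep in its values: 26.0 in RNAi, 22.6 in overexpression and 22.8 in control discs, at log2 folds of 0.19 and -0.0075. The ratio of Mkk4 to hep was 4.12 in RNAi, 5.05 in overexpression and 1.59 in control discs, a difference that was not tested.

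Other transcription factor genes linked to the pathway stood below Jra and kay in every group. Atf-2 stood at 6.99 in RNAi, 8.57 in overexpression and 7.60 in control discs, Atf3 at 2.14, 2.42 and 4.08, and the nuclear receptor gene ftz-f1 at 1.28, 1.59 and 3.09 in the same order of groups. The lowest Cuffdiff q among them in the authors' deposited table was 0.315, for ftz-f1 in RNAi discs.

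Genes known as targets or outputs of Jun kinase signalling lay on both sides of control. Of 14, 7 were above and 7 below control in RNAi discs, and 6 above and 8 below in overexpression discs. These counts hold all 14 genes, of which 11 passed the FPKM filter of 1. The median log2(FPKM + 0.1) fold of these 11 was -0.069 for RNAi and -0.40 for overexpression. It came to 0.13 and 0.26 with the length trend subtracted. The most abundant targets were GstD1, Mmp2 and cher. GstD1, a glutathione transferase of the oxidative stress response, stood at 813 in RNAi, 865 in overexpression and 734 in control discs. In the same order of groups, the matrix metalloproteinase gene Mmp2 stood at 49.8, 48.5 and 93.6, and the filamin gene cher at 51.2, 56.4 and 74.5. With the length trend subtracted, the folds for RNAi and overexpression were -0.035 and -0.18 for GstD1 and -0.49 and -0.45 for Mmp2. Those of cher, with a transcript of 8392 nt, came to 0.52 and 0.83, above 0 in place of below. Named after their values were seen, the cell death genes rpr and hid lay on opposite sides of control. The level of rpr was 33.9 in RNAi, 33.2 in overexpression and 21.5 in control discs, while that of hid, held under its older name W, was 8.67, 7.42 and 16.5. The metalloproteinase gene Mmp1, also named after its values were seen, stood at 28.8 in RNAi, 16.3 in overexpression and 30.9 in control discs. The cytokine genes upd1, upd2 and upd3, which injured discs express and which were also named after their values were seen, were below an FPKM of 1 in every group, and upd3 was not tested.

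**Figure D4:**
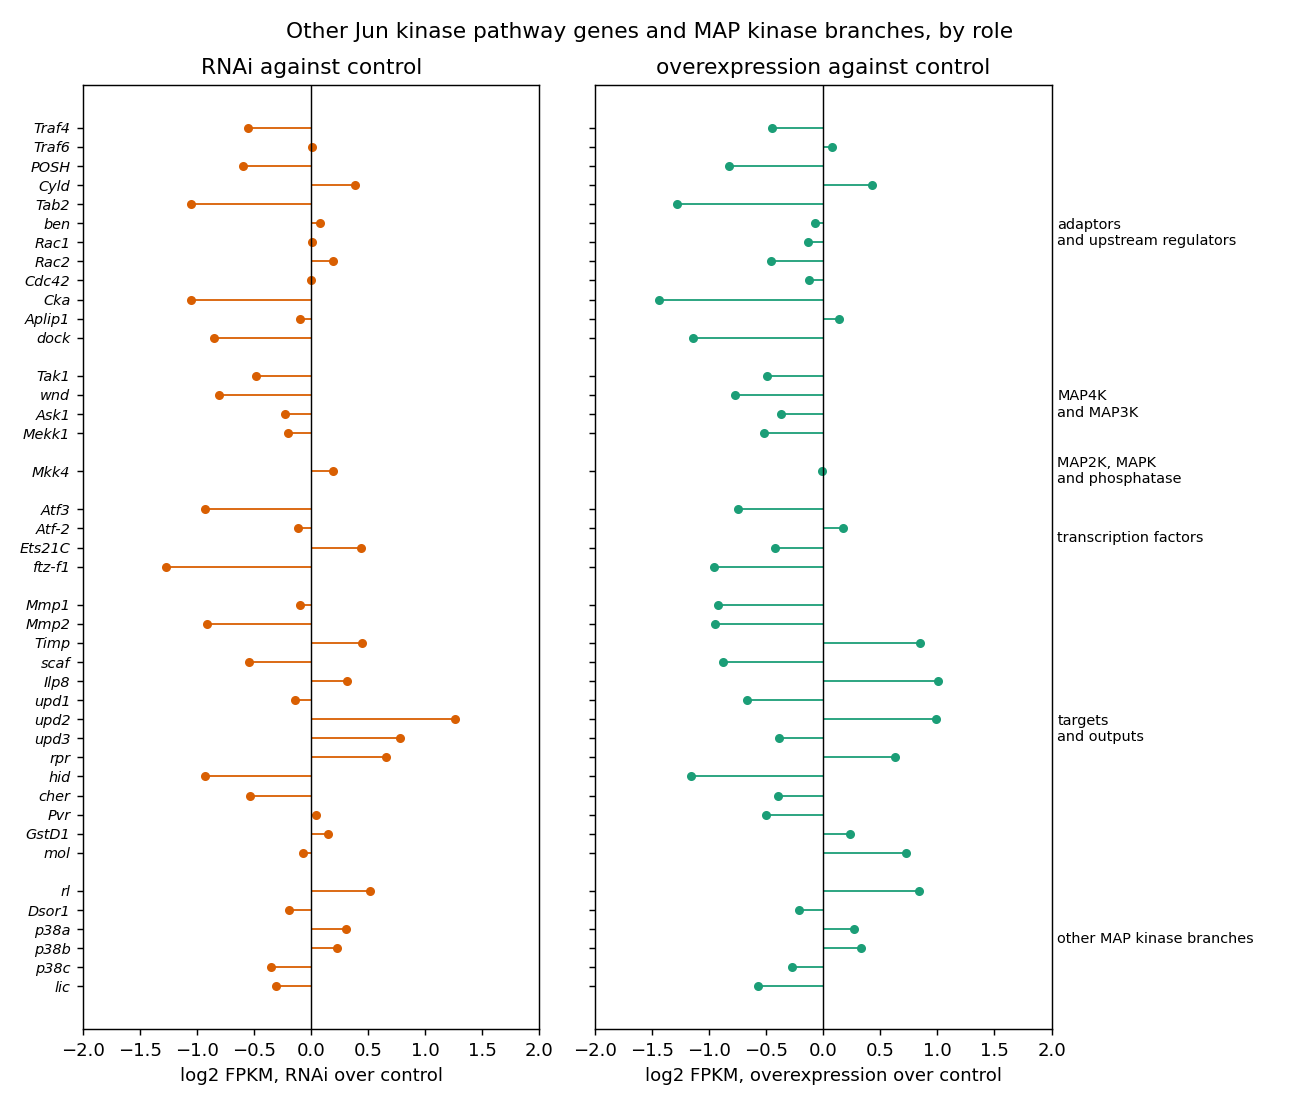
Points give the log2 FPKM fold over control of the 35 other pathway genes and of 6 genes of other MAP kinase branches, grouped by role, in RNAi and overexpression discs. No gene shown was called; the 4 kinases of the MAP3K level lie left of 0 in both panels, where folds are not corrected for length, and targets lie on both sides.

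The other MAP kinase branches gave a point of comparison. The ERK gene rl stood at 81.6 in RNAi, 102 in overexpression and 57.1 in control discs, at log2 folds of 0.52 and 0.83. Its kinase Dsor1 lay at -0.19 and -0.21, and the p38 kinase kinase lic at -0.30 and -0.58. None of the 6 genes was called, and their median fold was 0.018 for RNAi and 0.027 for overexpression. With the length trend subtracted, this median came to 0.017 for RNAi and -0.11 for overexpression. That of the wider pathway list was 0.00089 and -0.11 after the same subtraction. The folds of rl, with a transcript of 6472 nt, came to 1.34 and 1.76.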

How the data were processed

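Ribosomal RNA was depleted and stranded libraries were sequenced in paired 50 nt reads, each on 2 lanes, per the labels' protocols. The submitters' processing notes name the dm6 build, Cuffdiff 2.1.1, Cufflinks, TopHat and Bowtie; the sources used here give no other version, annotation or strand setting. The deposited tables give the authors' FPKM, pooled over both libraries of each group, per the file headers, beside the Cuffdiff test statistic (a score), p-value and q-value as deposited. Control FPKM values of both tables were identical at all 15904 loci.

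Folds were recomputed from FPKM as treated over control, because the deposited fold column held spreadsheet errors, and the sign of the statistic for overexpression was turned to match. List medians used log2(FPKM + 0.1) over loci with FPKM of 1 or more in the treated or control group. A total of 637 loci join several genes. Transcript lengths and gene positions came from Ensembl 115 (98.6% of loci), and the length trend was a running median of 250 loci on each side, tested on simulated data. Python 3.11.15 with pandas 2.3.3 and SciPy 1.17.1 was used.

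The genes and lists were chosen with earlier results of these data known. From the wider list the text names genes with p or q of 0.05 or less, genes at 0 in every group and up to 3 per role with the highest control FPKM; other names are marked as chosen after their values were seen. Alternatives were other adjustments of p, pseudocounts, filters, recentring, the length trend and leaving out joined loci.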

Additional observations from a re-analysis of the deposited data

How the results depend on the processing

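Calls of the pathway genes were the same under all adjustments. In either comparison, 0 of the 10 genes and 0 of the wider list passed with Benjamini-Hochberg over all tested genes. The same held with p from the statistic, or with Benjamini-Hochberg over loci with FPKM of 1 or more. The deposited Cuffdiff q was lower than Benjamini-Hochberg over all tested genes, at 0.0940 against 0.453 for slpr in overexpression discs. Over all loci, the largest Cuffdiff p called was 0.00395 and the smallest q 0.00144 in each comparison, with 93 and 136 loci called. The deposited q thus does not look like an adjustment within 1 comparison, and the sources used here do not state its set of tests. The shares of loci called and the smallest called folds given above rest on this q. Marker genes called only by the deposited q were gl in overexpression discs (0.031 against 0.26), and Lsp1gamma (0.049 against 0.48) and Lsp2 (0.0026 against 0.075) in RNAi discs. At an unadjusted p of 0.05 or less, 1 gene passed for RNAi and 2 for overexpression, and none of the wider list. The median fold of the 10 genes for RNAi, -0.17, turned to 0.059 with the length trend subtracted and came to -0.0055 without the locus that joins slpr and CG2278. For overexpression, -0.42 came to -0.23 with the trend subtracted. Pseudocounts, filters and recentring moved neither median by over 0.1. Of single genes, kay turned to 0.13 for RNAi and 0.084 for overexpression after the trend was subtracted. The value of egr turned to 0.035 for RNAi and -0.0080 for overexpression after recentring, and to -0.022 for overexpression after the trend was subtracted; its folds are within 0.03 of 0. No gene passed the threshold under any of these. The normal score of the deposited p exceeded the statistic, at the median of the 10 genes, by a factor of 1.36 in the RNAi comparison and 1.38 in the other, so the implied SE is wider than the error behind p. No paired analysis was possible because the tables pool both libraries of a group, and for the same reason no library was left out.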
